A study of Mus musculus with 36 samples.

Results

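The TNF superfamily ligands described here are 9 genes chosen by symbol: Tnf, Lta, Ltb, Fasl, Tnfsf10, Tnfsf9, Tnfsf11, Tnfsf13b and Tnfsf15. All 9 were found by their Ensembl identifiers among the 52636 genes counted in each library. RNA was sequenced from 30 intestines of E18.5 mouse embryos and from 6 cultures of mouse embryonic fibroblasts (MEFs), with 3 libraries per genotype. The D387A set of 18 intestines held Mlkl-/- controls, Casp8 D387A with intact Mlkl, Casp8 D387A Cflar-/- Mlkl-/- (D387A Cflar-/-), and the same genotype that also lacked Casp1, Casp1 and Ifnar1, or Casp1 and Fadd. The C362A set of 12 intestines held its own Mlkl-/- controls, Casp8 C362A Mlkl-/- (C362A), the same without Casp1 (C362A Casp1-/-) and the same without Cflar (C362A Cflar-/-). The MEFs, made from embryos without heads and internal organs, were Mlkl-/- or D387A Cflar-/-. By the labels, every group except Casp8 D387A alone therefore lacked Mlkl, the pseudokinase that executes necroptosis. D387A removes the site at which caspase-8 cleaves itself between its catalytic subunits, C362A removes the catalytic cysteine, and Cflar encodes cFLIP, the catalytically dead partner of caspase-8. By the study's methods, the Cflar deletion on the D387A allele came from 1 mosaic founder, which also supplied a Mlkl deletion. The Cflar deletion on the C362A allele was made separately and is smaller.

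Ligands of the TNF superfamily are mostly membrane proteins that act as trimers, and some are released by proteases. They bind receptors of the matching TNF receptor superfamily, which recruit TRAF proteins to switch on NF-kappaB or, where a receptor carries a death domain, lead to a complex of FADD, caspase-8 and cFLIP that can kill the cell. In the intestine, TNF is known for driving inflammation and epithelial death, and the lymphotoxins for building gut lymphoid tissue.

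Reads on genes ranged from 17943524 to 27721024 per library in the D387A set, from 21757868 to 31052238 in the C362A set and from 20927014 to 32307629 in the MEFs. Casp1 had at most 5 reads in each Casp1-/- intestine, and Fadd had 15 to 23 reads in Fadd-/- intestines against 812 to 1299 in the other intestines of the D387A set. Ifnar1 had 813 to 893 reads in Ifnar1-/- intestines against 1334 to 2185 in the rest of that set, while reads remained on Cflar and Mlkl in every group, so that their counts did not check those labels. The third D387A Cflar-/- Casp1-/- embryo stood apart from the other 2 of its group, with a chi-square per gene of 75.5 and 77.2 against 14.3 between the other pair, and had 966 Mlkl reads against 138 and 166. Mlkl reads ran from 1079 to 1425 in the Ifnar1-/- and Fadd-/- groups, from 227 to 328 with Casp8 D387A alone and from 91 to 107 in controls. Whether that embryo's genotype is as labelled was not tested. Ligand results that rest on its group are given without it where that ends or makes a call or moves the fold by over 1.5 times. The third C362A Cflar-/- embryo also stood apart (72.7 and 71.9 against 26.6), as did the first D387A Cflar-/- Casp1-/- Ifnar1-/- embryo (37.2 and 32.6 against 5.91), and leaving out either of them ended no ligand call and added 1, of Tnfsf11 for the former and of Tnfsf10 for the latter. Intestines had epithelial markers such as Fabp1 and Cdx2, and MEFs had no read on Cdx2, Fabp1, Fabp2 or Alpi. Because whole tissue was sequenced, fewer cells that make a ligand and less ligand RNA per cell cannot be told apart.

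In control intestines the ligands spanned a wide range of levels. Levels are given as RPKM, reads scaled to gene width in kilobases and to library size, which lets genes be compared. In Mlkl-/- intestines of the D387A set, Tnfsf10 was at 3.5 ± 0.709 RPKM (SD, n = 3), Ltb at 1.91 ± 0.391 and Tnfsf9 at 1.17 ± 0.0788. Tnfsf10, Ltb and Tnfsf9 followed each other in that order without overlap between neighbouring genes. Lta followed at 0.344 ± 0.0307, Tnfsf13b at 0.261 ± 0.112 and Tnfsf11 at 0.138 ± 0.0951, and each of these overlapped the next in single libraries. Tnf was at 0.0617 ± 0.0301, Fasl at 0.0177 ± 0.0153 and Tnfsf15 at 0.0105 ± 0.0181, from totals of 6, 2 and 2 reads over the 3 libraries. In Mlkl-/- MEFs the order was different: Tnfsf9 was at 3.56 ± 0.289 RPKM, Tnfsf11 at 2.58 ± 0.598 and Tnfsf15 at 0.387 ± 0.114, while Tnfsf10 and Ltb had no more than 0.0118 and 0.0278 RPKM in any control culture.

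**Figure D1:**
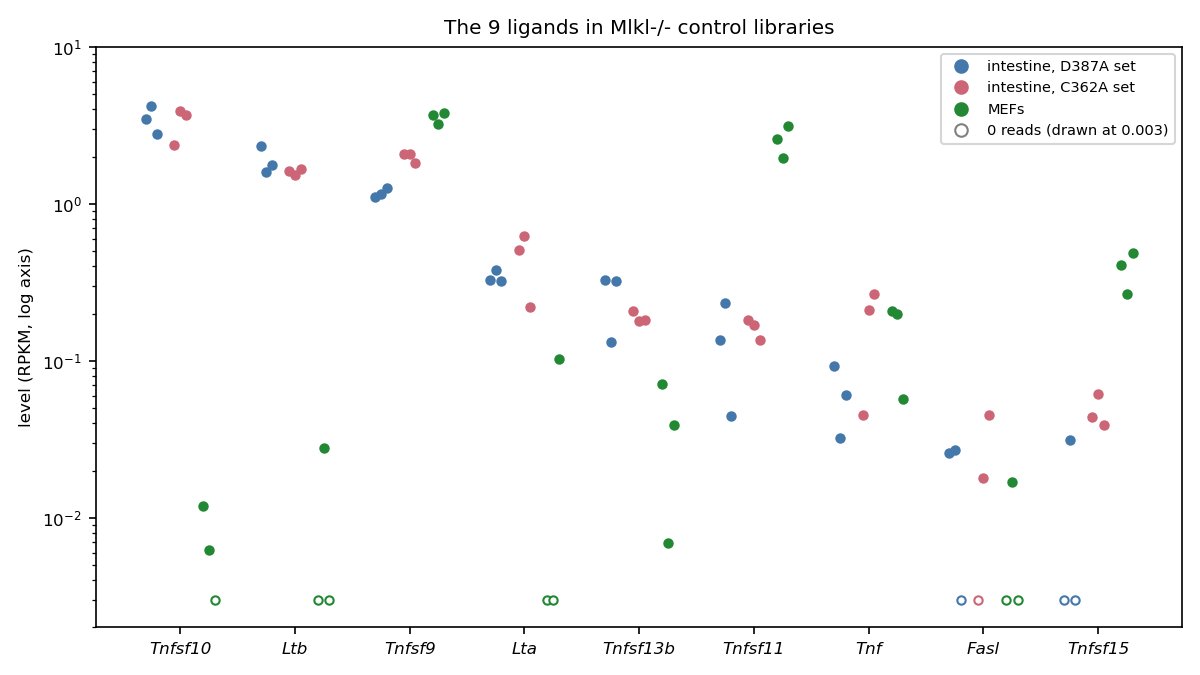
Levels of the 9 ligands (RPKM, log axis) in the 3 Mlkl-/- libraries of each set, 1 point per library, with libraries that had 0 reads drawn as open points at the bottom. Tnfsf10 and Ltb lie above 1 RPKM in all control intestines and near the bottom in MEFs, and Tnfsf11 and Tnfsf15 are higher in MEFs than in either group of control intestines.

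Tnf, Lta and Ltb lie next to each other on chromosome 17 (GRCm38): Tnf at chr17:35199381-35202007 on the minus strand, Lta at chr17:35203165-35205351 on the minus strand and Ltb at chr17:35194439-35196320 on the plus strand. Tnfsf9 is farther along the same chromosome, at chr17:57105325-57107757 on the plus strand. A lincRNA on the opposite strand, Gm11110, overlaps Tnfsf9, and how the counting treated strand is not given in the sources used here, so Tnfsf9 reads may include some of its transcripts. Tnfsf10 is at chr3:27317028-27342427 (plus), Tnfsf15 at chr4:63727084-63745113 (minus), Tnfsf13b at chr8:10006467-10039072 (plus), Tnfsf11 at chr14:78277445-78308043 (minus) and Fasl at chr1:161780689-161788495 (minus). Their widths in the files, over which RPKM was computed, ran from 1178 bases for Ltb to 5266 for Tnfsf10.

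Promoters were read from RefSeq (GRCm38.p6), 250 bases before to 50 after each start site, and were found for 8 of the 9 ligands. A few are shown because several of the ligands changed together in the mutants. A set of 3 DNA motifs was searched on both strands, as a description with no test: the NF-kappaB consensus, the interferon response core GAAANNGAA and the AP-1 site TGANTCA. Of all 32851 promoters of this length, 4.51% held the NF-kappaB consensus, 8.56% GAAANNGAA and 7.81% TGANTCA. Among the 8 ligands, 1 held the NF-kappaB consensus, 1 held GAAANNGAA and 1 held TGANTCA. Ltb (chr17:35194257-35194556, plus strand) matched the NF-kappaB consensus on the opposite strand, beginning 87 bases before the start. One of the 2 Tnfsf13b entries (chr8:10006383-10006682, plus strand) matched both GAAANNGAA and TGANTCA, and the other, which overlaps it, matched TGANTCA at the same place. The Tnf (chr17:35201958-35202257, minus strand) and Tnfsf10 (chr3:27316827-27317126, plus strand) windows, shown because these ligands moved in most mutants, had none of the 3 motifs, which says only that these letters are not in these windows. Matches are in capitals, and each sequence runs 5′ to 3′ toward the gene.
Ltb promoter: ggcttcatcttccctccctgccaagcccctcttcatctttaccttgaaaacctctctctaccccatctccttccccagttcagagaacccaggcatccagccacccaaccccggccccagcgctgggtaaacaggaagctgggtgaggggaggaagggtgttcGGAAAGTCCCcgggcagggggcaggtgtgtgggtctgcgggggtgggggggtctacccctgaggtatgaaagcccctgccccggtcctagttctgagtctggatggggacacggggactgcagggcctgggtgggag
Tnfsf13b promoter: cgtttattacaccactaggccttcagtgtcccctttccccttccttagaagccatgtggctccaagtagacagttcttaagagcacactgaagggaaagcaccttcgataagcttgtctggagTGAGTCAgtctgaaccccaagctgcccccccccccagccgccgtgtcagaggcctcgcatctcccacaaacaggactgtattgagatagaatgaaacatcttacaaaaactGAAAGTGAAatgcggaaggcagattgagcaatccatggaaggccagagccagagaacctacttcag
Tnf promoter: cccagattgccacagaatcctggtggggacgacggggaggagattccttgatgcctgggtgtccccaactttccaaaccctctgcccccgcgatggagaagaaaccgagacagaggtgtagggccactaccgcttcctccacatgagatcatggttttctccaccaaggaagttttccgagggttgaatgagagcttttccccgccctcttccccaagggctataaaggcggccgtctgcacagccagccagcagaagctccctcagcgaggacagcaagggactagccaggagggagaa
Tnfsf10 promoter: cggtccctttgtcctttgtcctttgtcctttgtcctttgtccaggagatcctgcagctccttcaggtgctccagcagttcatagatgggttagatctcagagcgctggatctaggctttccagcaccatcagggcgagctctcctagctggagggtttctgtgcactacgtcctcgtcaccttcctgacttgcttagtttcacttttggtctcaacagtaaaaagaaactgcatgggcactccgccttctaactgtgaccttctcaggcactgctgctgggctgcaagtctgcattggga

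The comparisons asked how each mutation of caspase-8 and each further deletion changed the ligands. Counts were tested with edgeR's quasi-likelihood test over all genes of a set, with Benjamini-Hochberg adjustment, and a gene was called when its fitted level moved by more than 1 on the log2 scale in either direction at an adjusted p under 0.05. Lta and Fasl had too few reads to be tested in the D387A set, Fasl in the C362A set, and only Tnfsf9, Tnfsf11 and Tnfsf15 could be tested in MEFs. Tnf, Tnfsf9 and Tnfsf15 rose in D387A Cflar-/- intestines, and 7 of the 8 tested ligands rose in C362A intestines. No tested ligand was called lower than the controls of its set in any mutant.

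Casp8 D387A alone called none of the 7 tested ligands, where 0.00545% of all genes were called and the ligands' median log2 fold change was -0.31 against 0.02 over all genes. None of these 7 had an unadjusted p under 0.05, and DESeq2 and limma-voom also called 0. In D387A Cflar-/- intestines 3 of 7 were higher, and the ligands' median was 0.88 on the log2 scale against -0.01 over all genes, and 22.2% of all genes were called. Without Casp1, 3 of 7 were higher with a median of 0.71, and 4.34% of all genes were called. Without Casp1 and Ifnar1, 5 of 7 were higher with a median of 1.15, and 12.4% of all genes were called. Without Casp1 and Fadd, 3 of 7 were higher with a median of 0.63, and 3.78% of all genes were called. These 5 comparisons share the same Mlkl-/- embryos. In the sample titles, only the D387A Cflar-/- embryos carry the same leading number as these controls. Casp8 D387A alone and each group lacking Casp1 have numbers of their own, and what the numbers stand for is not given. In comparisons across these numbers, among them those for loss of Casp1, Ifnar1 or Fadd in this set, genotype and number cannot be told apart.

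In the C362A set, 7 of 8 tested ligands were higher in C362A intestines. Their median was 2.18 on the log2 scale against 0.02 over all genes, where 18% of all genes were called. In C362A Casp1-/- intestines 4 of 8 were higher with a median of 1.30 (10.5% of all genes were called), and in C362A Cflar-/- intestines 6 of 8 were with a median of 1.73 (24.6%), again against shared controls. When 1 further gene was removed, 2 of 7 ligands were lower without Casp1 in D387A Cflar-/- intestines (median -0.82, 13.4% of all genes called) and 3 of 8 in C362A intestines (median -1, 11.3%). Without Ifnar1, 2 of 7 were higher (median 0.97, 5.32%). Without Fadd, 1 of 7 was higher and 1 lower (median -0.29, 3.44%). Without Cflar, 2 of 8 were lower than in C362A (median -0.19, 6.06%). The medians over all genes in these 5 comparisons lay within 0.03 of 0. Several of these counts change when 1 library is left out: without the third D387A Cflar-/- Casp1-/- embryo, Casp1 loss and Ifnar1 loss each called 4 ligands and Fadd loss called 1, and without the first or the second embryo of that group Ifnar1 loss called 0. Over all genes, Ifnar1 loss called 976, then 1740 without the third embryo and 629 or 582 without the first or the second. Lta could also be tested without the third embryo. The count without Casp1 and Fadd against controls fell from 3 to 1 when the first control, the third control or the third Fadd-/- embryo was left out.

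**Figure D2:**
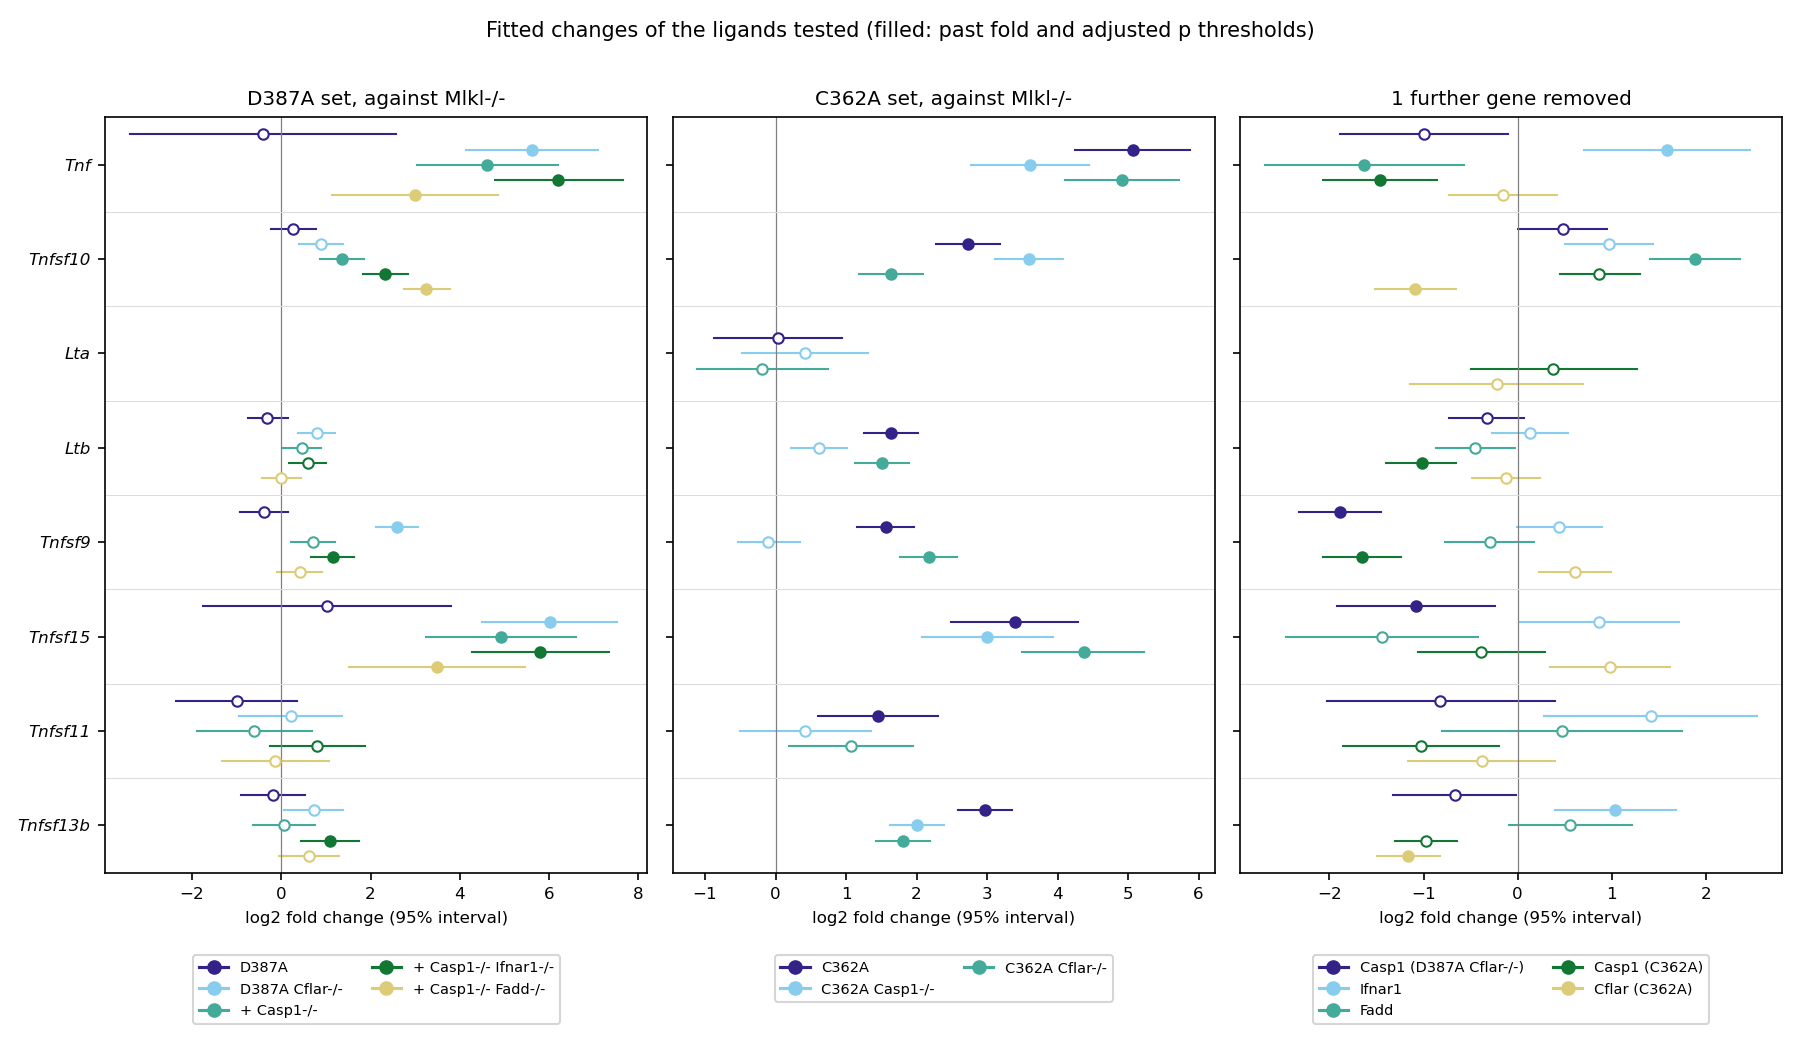
Fitted log2 fold changes of the tested ligands (points) with 95% intervals (lines), against the Mlkl-/- controls of each set and for each further deletion. In the left panel + marks genes removed in addition to D387A Cflar-/-. Filled points passed both the fold and the adjusted p thresholds. Tnf and Tnfsf15 are filled and to the right of 0 in every mutant intestine group other than Casp8 D387A alone. For Casp1 loss, Tnf and Tnfsf9 lie to the left of 0 in both sets, and Tnf is not filled in the D387A set.

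Among the death ligands, Tnf encodes the founding cytokine of the family, which signals through Tnfrsf1a and Tnfrsf1b. Tnf had 3, 1 and 2 reads in Mlkl-/- intestines of the D387A set and 1, 1 and 3 reads with Casp8 D387A alone. It had 87, 137 and 149 reads in D387A Cflar-/- intestines, or 2.29, 3.73 and 3.63 RPKM, all above every control. The log2 fold change was 5.62 (SE 0.753, adjusted p = 5.35e-06). In D387A Cflar-/- Casp1-/- intestines Tnf was at 0.582, 0.658 and 3.63 RPKM, so that 2 embryos were below all D387A Cflar-/- embryos and the third was within their range. The group was above controls by 4.62 on the log2 scale (SE 0.809, adjusted p = 0.000846), or by 3.25 without the third embryo (adjusted p = 0.000247). Against D387A Cflar-/- the difference of -1 was not called (SE 0.455, adjusted p = 0.082), and without the third embryo it was -2.37 (adjusted p = 2.25e-06). It was also called by limma-voom (-1.5, adjusted p = 0.00606), with no filter (-1.02, adjusted p = 0.0211) and with a replicate block (-1.2, adjusted p = 0.0179).

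Tnf was at 4.43, 5.17 and 4.98 RPKM without Casp1 and Ifnar1, above all 3 D387A Cflar-/- Casp1-/- embryos and all controls. The log2 difference from D387A Cflar-/- Casp1-/- was 1.59 (SE 0.45, adjusted p = 0.0142). Without the third embryo of the latter group the difference was 2.96 (adjusted p = 3.96e-07). The call was lost without the first (1.18, adjusted p = 0.0665) or the second embryo of that group (1.21, adjusted p = 0.0716), and with only the groups compared (adjusted p = 0.112). Without Casp1 and Fadd, Tnf was at 0.405, 0.375 and 0.777 RPKM, between the controls and the D387A Cflar-/- embryos. It was higher than in controls (log2 fold change 3.00, SE 0.949, adjusted p = 0.0361), a call that rests on 6 control reads and was lost with adjusted p of 0.0504 to 0.117 when any of 5 of the 6 libraries was left out, and by limma-voom (2.78, adjusted p = 0.0736). The lower level than in D387A Cflar-/- Casp1-/- (-1.63, SE 0.542, adjusted p = 0.0462) came to -0.26 (adjusted p = 0.631) without the third embryo of that group. That call was also lost without the first (-1.48, adjusted p = 0.132) or second Fadd-/- embryo (-1.44, adjusted p = 0.145), by DESeq2 (-1.62, adjusted p = 0.056), by limma-voom (-1.14, adjusted p = 0.187) and with only the groups compared (adjusted p = 0.221).

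Tnf in the C362A set was at 0.0449, 0.21 and 0.266 RPKM in Mlkl-/- controls and at 4.72, 6.73 and 5.95 RPKM in C362A intestines, with no overlap (log2 fold change 5.07, SE 0.415, adjusted p = 2.31e-07). In C362A Casp1-/- intestines it was at 2.08, 2.69 and 1.54 RPKM, below every C362A embryo and above every control. This fall of 1.46 on the log2 scale passed the test (log2 fold change -1.46, SE 0.309, adjusted p = 0.00245). In C362A Cflar-/- intestines Tnf was at 7.27, 4.67 and 3.7 RPKM, which overlapped C362A. The difference between the Casp1 effects in the 2 sets was 0.49 on the log2 scale (SE 0.591, adjusted p = 0.598), and without the third D387A Cflar-/- Casp1-/- embryo it was -0.88 (adjusted p = 0.172).

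Tnfsf10 encodes TRAIL, which binds the death receptor Tnfrsf10b and, in mice, decoy receptors encoded by Tnfrsf22 and Tnfrsf23. It had a different order of groups from Tnf. Levels were 3.5, 4.21 and 2.79 RPKM in Mlkl-/- intestines of the D387A set and 7.69, 4.8 and 6.87 RPKM in D387A Cflar-/- intestines. The groups did not overlap, but the log2 fold change of 0.88 was below the fold threshold (SE 0.253, adjusted p = 0.0061). It was called without the second control (1.04, adjusted p = 0.00572) or the second D387A Cflar-/- embryo (1.06, adjusted p = 0.00272), which made 4 called ligands in place of 3. Tnfsf10 was at 5.54, 8.31 and 13.1 RPKM without Casp1, at 13.5, 19.1 and 20.2 without Casp1 and Ifnar1, and at 28.6, 37.4 and 34 without Casp1 and Fadd. Thus the highest levels in this set were in the Fadd-/- intestines, where mean Tnf was lowest among the Cflar-/- groups. Tnf levels there overlapped those without Casp1 alone, and that Tnf difference was -0.26 without the third embryo lacking Casp1 (adjusted p = 0.631). The log2 fold changes of Tnfsf10 against controls were 1.36 (adjusted p = 0.00133), 2.33 (adjusted p = 2.37e-06) and 3.25 (SE 0.263, adjusted p = 1.08e-06), and the first was 0.99 without the third embryo of its group. The difference with Casp1 loss was 0.48 (adjusted p = 0.119), and 0.1 without the third embryo lacking Casp1 (adjusted p = 0.715). Loss of Fadd came with a rise of Tnfsf10 by 1.89 (SE 0.245, adjusted p = 8.43e-05). Loss of Ifnar1, the receptor subunit for type I interferons, came with a difference of 0.97 (SE 0.241, adjusted p = 0.007), below the fold threshold. It was called without the third D387A Cflar-/- Casp1-/- embryo (1.34, adjusted p = 8.76e-05), without the first Ifnar1-/- embryo (1.12, adjusted p = 0.00371) and by limma-voom (1.04, adjusted p = 0.00384). Fadd loss gave 2.27 without the third D387A Cflar-/- Casp1-/- embryo (adjusted p = 6.8e-07).

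Tnfsf10 in the C362A set was at 2.39, 3.89 and 3.67 RPKM in controls and at 18.9, 21.6 and 25.5 RPKM in C362A intestines (log2 fold change 2.73, SE 0.236, adjusted p = 4.04e-07). C362A Casp1-/- intestines had 35, 44.8 and 41.1 RPKM of Tnfsf10, above every C362A embryo, with a log2 difference of 0.87 (SE 0.219, adjusted p = 0.00733). Without Cflar it was at 10.4, 6.97 and 13.6 RPKM, below every C362A embryo. That fall was 1.09 on the log2 scale (log2 fold change -1.09, SE 0.222, adjusted p = 0.0038), and it was -0.97 without the third C362A embryo and -0.87 without the second C362A Cflar-/- embryo. Every C362A Casp1-/- embryo was thus above every C362A embryo for Tnfsf10 and below every one for Tnf, Ltb and Tnfsf9.

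Fasl encodes the ligand of Fas and is made mostly by cytotoxic lymphocytes. It was at or near the limit of counting in all 36 libraries, with at most 6 reads in any of them. In C362A intestines it had 4, 3 and 6 reads against 0, 1 and 2 in controls, and the groups did not overlap (2-sided exact permutation test, p = 0.1, the smallest this design allows), with a ratio of read rates of 4.11 (95% counting interval 1.13 to 22.5). Fasl had 0, 2 and 1 reads in C362A Cflar-/- intestines, below every C362A embryo (exact permutation p = 0.1), with a ratio to C362A of 0.243 (0.0444 to 0.885). Those intervals cover counting error only. No read was found in the D387A Cflar-/- Casp1-/- Ifnar1-/- intestines, a count that allows an expected total of about 3 reads over the group, and this limit covers counting error only. The counting intervals of Fasl in the other comparisons between intestine groups, and in MEFs, all held 1.

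**Figure D3:**
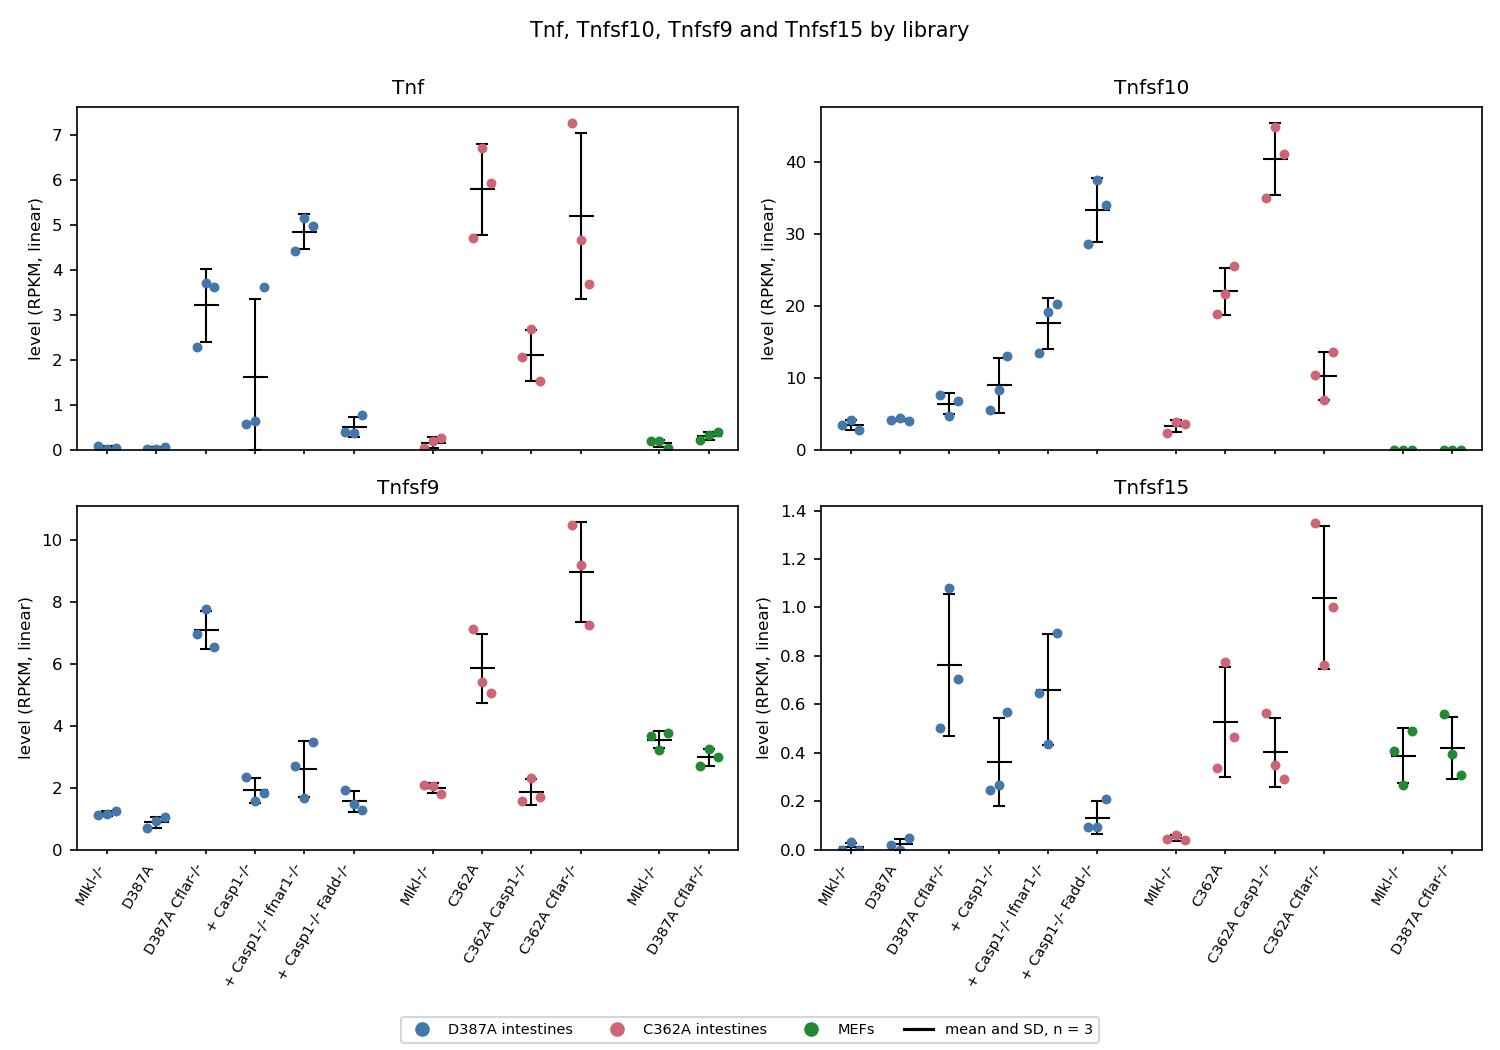
Levels of Tnf, Tnfsf10, Tnfsf9 and Tnfsf15 (RPKM, linear axes from 0) in all 36 libraries, with points for libraries, bars for means and SD of 3 (lower ends stop at 0), and + for genes removed in addition to D387A Cflar-/-. The third D387A Cflar-/- Casp1-/- library lies at 3.63 RPKM for Tnf, far above the other 2 of its group, and Tnfsf10 is highest in the Fadd-/- and C362A Casp1-/- groups.

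The lymphotoxins are encoded by Lta and Ltb, whose products form a trimer on lymphocytes that binds Ltbr, and Lta alone also forms a soluble trimer. Ltb was at 2.35, 1.6 and 1.78 RPKM in controls of the D387A set and at 3.7, 2.69 and 3.53 RPKM in D387A Cflar-/- intestines, a log2 difference of 0.79 that was below the fold threshold (SE 0.213, adjusted p = 0.00414). It was at 1.62, 1.52 and 1.66 RPKM in controls of the C362A set and rose to 4.82, 4.96 and 5.18 RPKM in C362A intestines (log2 fold change 1.64, SE 0.197, adjusted p = 1.11e-05). All C362A embryos were well above all controls. Without Casp1 it was at 2.25, 2.44 and 2.67 RPKM, a fall from C362A of 1.02 on the log2 scale (log2 fold change -1.02, SE 0.191, adjusted p = 0.00101) that came to -0.99 without the third C362A embryo and -0.97 without the first C362A Casp1-/- embryo. In C362A Cflar-/- intestines Ltb was at 3.6, 5.86 and 4.25 RPKM, higher than in controls by 1.51 (adjusted p = 1.78e-05).

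Lta had 9, 10 and 9 reads in controls of the D387A set and 8, 3 and 8 reads in D387A Cflar-/- intestines. Its reads relative to library size were lower than in every control in 4 of the 5 mutant groups, all but the Fadd-/- intestines, with an exact permutation p of 0.1 each, the smallest possible with 3 against 3. In the C362A set it was at 0.505, 0.622 and 0.22 RPKM in controls and at 0.392, 0.54 and 0.47 RPKM in C362A intestines, which overlapped, and none of the 3 mutant groups of that set was called. Lta thus stayed within the range of controls in the C362A embryos in which Ltb rose.

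Markers of lymphocytes moved in the same comparison as Ltb. Of 10 T and NK cell markers, 8 could be tested and 6 were higher in C362A intestines, and their summed level was 10.7 to 11.5 RPKM against 3.54 to 4.74 in controls. Both B cell markers that could be tested of 5 were higher, with a sum of 2.96 to 3.85 against 1.05 to 1.55 RPKM. In D387A Cflar-/- intestines none of the 5 tested T and NK cell markers was called, and their sum was 4.44 to 6.21 against 4.27 to 5.81 RPKM in controls. No marker of either list was at 0 in C362A intestines. The part of these cells in the Ltb result was not tested.

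Of the costimulatory ligands, Tnfsf9 rose in both D387A Cflar-/- and C362A intestines and fell with Casp1 loss in both. Tnfsf9 encodes 4-1BBL, the ligand of the T cell receptor Tnfrsf9. It was at 1.11, 1.15 and 1.26 RPKM in controls of the D387A set, at 0.697, 0.916 and 1.04 RPKM with Casp8 D387A alone, and at 6.98, 7.77 and 6.56 RPKM in D387A Cflar-/- intestines. The rise was 2.59 on the log2 scale (SE 0.239, adjusted p = 6.35e-08). Without Casp1 it was at 2.36, 1.57 and 1.82 RPKM, far below every D387A Cflar-/- embryo yet above every control. It was lower by 1.89 with loss of Casp1 (log2 fold change -1.89, SE 0.223, adjusted p = 3e-06), and the remaining difference from controls of 0.71 was not called (adjusted p = 0.0577). Without Casp1 and Ifnar1 it was at 2.69, 1.68 and 3.47 RPKM, higher than in controls by 1.15 (adjusted p = 0.00107), or by 0.88 without the third embryo, and without Casp1 and Fadd at 1.94, 1.46 and 1.28 RPKM.

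Tnfsf9 in the C362A set was at 2.09, 2.07 and 1.81 RPKM in controls, at 7.14, 5.41 and 5.05 in C362A intestines and at 1.57, 2.33 and 1.69 without Casp1. Levels without Casp1 overlapped those of controls. Loss of Casp1 lowered it by 1.65 (log2 fold change -1.65, SE 0.212, adjusted p = 4.71e-05). In C362A Cflar-/- intestines it was at 10.5, 9.22 and 7.25 RPKM, above every C362A embryo (log2 difference 0.61, SE 0.195, adjusted p = 0.0403, below the fold threshold). The antisense Gm11110 had 13 to 22 reads in controls of the D387A set and 55, 67 and 74 in D387A Cflar-/- intestines, while Tnfsf9 had 27 to 31 and 199 to 214. The share of reads between them was not tested.

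Tnfsf15 encodes TL1A, which binds Tnfrsf25 on lymphocytes. It had 0, 2 and 0 reads in controls of the D387A set and 1, 0 and 4 with Casp8 D387A alone. In D387A Cflar-/- intestines it had 39, 81 and 59 reads, or 0.503, 1.08 and 0.704 RPKM, and every library was above every control. With only 2 control reads, the ratio of read rates was 74.7, with a 95% counting interval of 20.4 to 621. With loss of Casp1 it was at 0.244, 0.268 and 0.569 RPKM (log2 fold change -1.08, SE 0.427, adjusted p = 0.0463), with overlap between the groups. This call was lost without the second (-0.75, adjusted p = 0.211) or the third D387A Cflar-/- embryo (-1.14, adjusted p = 0.0694), and without the first (-0.86, adjusted p = 0.158) or second embryo lacking Casp1 (-0.91, adjusted p = 0.152), or with only the groups compared (adjusted p = 0.0693). Without the third embryo lacking Casp1 it was -1.56 (adjusted p = 0.00934).

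Without Casp1 and Ifnar1, Tnfsf15 was at 0.646, 0.436 and 0.896 RPKM, a difference from D387A Cflar-/- Casp1-/- of 0.87 (adjusted p = 0.134) that was 1.35 and called without the third embryo of that group (adjusted p = 0.0279). Without Casp1 and Fadd it was at 0.0925, 0.0919 and 0.21 RPKM, the lowest of the Cflar-/- groups. Its difference from D387A Cflar-/- Casp1-/- of -1.44 was not called (adjusted p = 0.0652), but was by DESeq2 (-1.43, adjusted p = 0.0297), with no filter (adjusted p = 0.0296) and without the third Fadd-/- embryo (-1.94, adjusted p = 0.0446). Without the third D387A Cflar-/- Casp1-/- embryo that difference was -0.95 (adjusted p = 0.232). The Fadd-/- level corresponded to 30 reads in all, a ratio to controls of 13 with a counting interval of 3.29 to 112, and its call (adjusted p = 0.0228) was lost without the third Fadd-/- embryo (adjusted p = 0.0868) or without the first (adjusted p = 0.0924) or the third control (adjusted p = 0.0874). In the C362A set it was at 0.0439, 0.0616 and 0.039 RPKM in controls and at 0.335, 0.776 and 0.464 in C362A intestines (log2 fold change 3.39, SE 0.457, adjusted p = 3.34e-05). Without Casp1 it was at 0.564, 0.348 and 0.293 RPKM, which overlapped C362A, and the difference of -0.39 was not called (SE 0.344, adjusted p = 0.417). In C362A Cflar-/- intestines it was at 1.35, 0.761 and 1 RPKM, a difference from C362A of 0.98 (SE 0.324, adjusted p = 0.048) just below the fold threshold. It was called by limma-voom (1.02, adjusted p = 0.0324), with no filter (adjusted p = 0.0189), without the second C362A embryo (1.37, adjusted p = 0.0176) and without the second C362A Cflar-/- embryo (1.16, adjusted p = 0.0445).

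The receptors of Tnfsf9 and Tnfsf15 went in opposite directions in D387A Cflar-/- intestines. Tnfrsf9 had 87, 86 and 80 reads in controls and 810, 1079 and 1172 reads in D387A Cflar-/- intestines (log2 fold change 3.33, SE 0.315, adjusted p = 8.82e-08). It fell with Casp1 loss in the D387A set (-2.13, adjusted p = 1.38e-05, or -2.68 without the third embryo lacking Casp1) and in the C362A set (-1.83, adjusted p = 0.000104), as its ligand did. In C362A Cflar-/- intestines Tnfrsf9 was higher than in C362A by 1.72 (adjusted p = 0.000387). Tnfrsf25 had 117, 79 and 68 reads in controls and 18, 17 and 17 reads in D387A Cflar-/- intestines (log2 fold change -2.59, SE 0.256, adjusted p = 1.49e-07), and rose with Casp1 loss (1.51, adjusted p = 0.000202). In C362A Cflar-/- intestines Tnfrsf25 was also lower than in controls (-1.5, adjusted p = 0.00119).

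**Figure D4:**
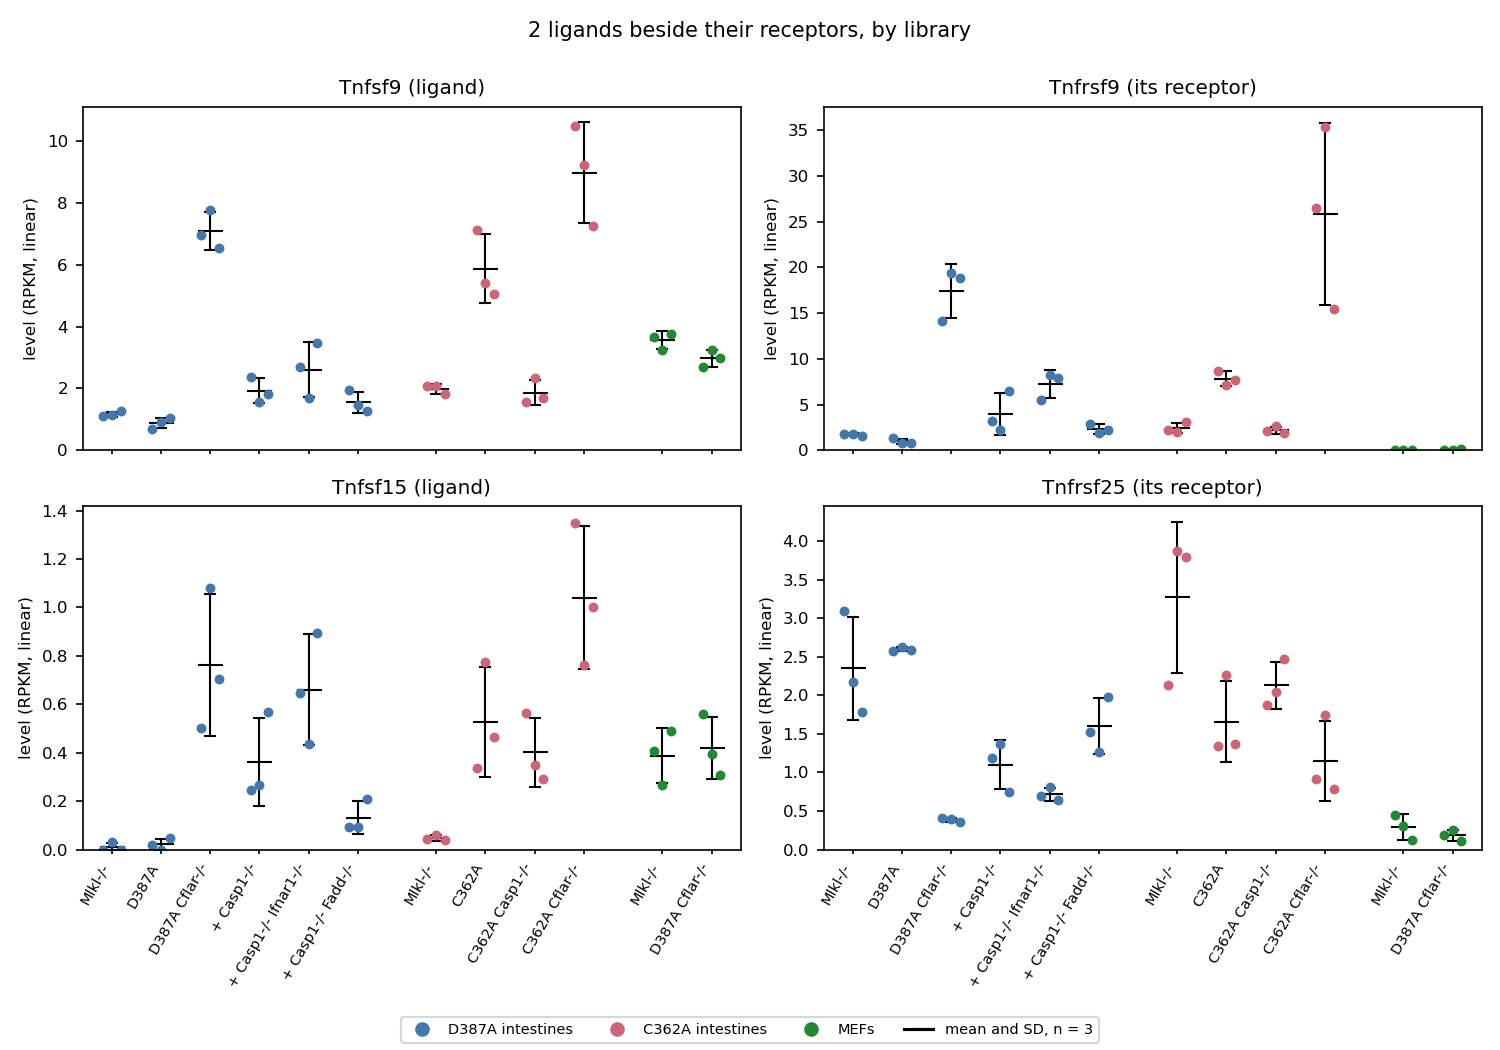
Levels (RPKM, linear axes from 0) of Tnfsf9 and its receptor Tnfrsf9, and of Tnfsf15 and its receptor Tnfrsf25, with points for libraries, bars for means and SD of 3, and + for genes removed in addition to D387A Cflar-/-. Among intestines, mean Tnfsf9 and mean Tnfrsf9 are both highest in the Cflar-/- groups with intact Casp1, whereas Tnfrsf25 is lowest in the D387A Cflar-/- group, at 0.357 to 0.408 RPKM, where Tnfsf15 is raised.

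Tnfsf11 and Tnfsf13b are ligands with roles in immune organ development and B cells. Tnfsf11 encodes RANKL, which signals through Tnfrsf11a and is blocked by the decoy Tnfrsf11b. It was at 0.135, 0.235 and 0.0447 RPKM in controls of the D387A set, from 6, 10 and 2 reads, and was called in none of the 5 mutant groups of that set. In C362A intestines it was at 0.339, 0.398 and 0.614 RPKM against 0.181, 0.169 and 0.136 in controls, with no overlap (log2 fold change 1.45, SE 0.437, adjusted p = 0.015), and without the third C362A embryo the call was lost (1.17, adjusted p = 0.08). It was at 0.18, 0.335 and 0.146 RPKM without Casp1 (difference from C362A -1.03, adjusted p = 0.0764) and at 0.379, 0.496 and 0.163 RPKM in C362A Cflar-/- intestines (1.07 against controls, adjusted p = 0.0585), neither of which was called. The latter was called without the third C362A Cflar-/- embryo (1.41, adjusted p = 0.0102), and the former without the second C362A Casp1-/- embryo (-1.47, adjusted p = 0.0433) or with only the groups compared (-1.04, adjusted p = 0.0413). The decoy Tnfrsf11b rose in D387A Cflar-/- intestines by 1.21 (adjusted p = 6.78e-06) and in C362A Cflar-/- intestines by 1.33 (adjusted p = 7.29e-06).

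Tnfsf13b encodes BAFF, a survival factor of B cells made largely by myeloid and stromal cells. It was at 0.327, 0.132 and 0.325 RPKM in controls of the D387A set and at 0.434, 0.29 and 0.578 RPKM in D387A Cflar-/- intestines, which overlapped (log2 difference 0.73, SE 0.337, adjusted p = 0.072). Without Casp1 it was at 0.171, 0.235 and 0.419 RPKM, and without Casp1 and Ifnar1 at 0.453, 0.629 and 0.611 RPKM. The difference between D387A Cflar-/- Casp1-/- and D387A Cflar-/- was -0.67 (adjusted p = 0.109), and -1.09 without the third embryo of the former (adjusted p = 0.0134), which passed both thresholds. Only the group without Casp1 and Ifnar1 was called against controls (1.10, SE 0.331, adjusted p = 0.0111), and not without the second control (0.78, adjusted p = 0.0613). Its difference from D387A Cflar-/- Casp1-/- was 1.04 (SE 0.325, adjusted p = 0.0233), and leaving out the first or second embryo of that group, or the second or the third Ifnar1-/- embryo, gave 0.79 to 0.98 with adjusted p of 0.0724 to 0.116. The call was also lost with prior count 2 (0.99) and with only the groups compared (adjusted p = 0.0772). Without the third D387A Cflar-/- Casp1-/- embryo the difference was 1.47 (adjusted p = 0.00225).

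Tnfsf13b rose in all 3 mutant groups of the C362A set. It was at 0.208, 0.18 and 0.183 RPKM in controls and at 1.58, 1.36 and 1.57 RPKM in C362A intestines, with a wide gap between the groups (log2 fold change 2.97, SE 0.194, adjusted p = 2.6e-08). Without Casp1 it was at 0.69, 0.784 and 0.822 RPKM and without Cflar at 0.787, 0.635 and 0.59 RPKM, so every embryo of both groups lay between controls and C362A. The fall without Cflar was called (-1.16, SE 0.171, adjusted p = 0.000503), and that without Casp1 was below the fold threshold (-0.97, SE 0.17, adjusted p = 0.000638). The latter was called without the second C362A embryo (-1.04, adjusted p = 0.00181) or the third C362A Casp1-/- embryo (-1.03, adjusted p = 0.00214). Markers of macrophages and monocytes summed to 83 to 102 RPKM in controls, 244 to 276 in C362A, 127 to 135 without Casp1 and 145 to 191 without Cflar, with 4 of 7 higher in C362A than in controls. Neutrophil markers, of which 4 of 5 tested were higher, summed to 535 to 667 RPKM in C362A intestines against 13.4 to 42 in controls and 21.9 to 30.7 without Casp1. Epithelial markers summed to 12400 to 21100 RPKM in controls, 3860 to 5040 in C362A, 14200 to 18100 without Casp1 and 1420 to 2240 without Cflar. Fabp1, Fabp2 and Alpi of the 9 epithelial markers were lower than in controls in C362A and C362A Cflar-/- intestines, and Krt20 was higher. The median log2 fold change of the 9 was -0.1 in C362A and -0.76 in C362A Cflar-/- intestines. Dendritic cell markers summed to 13.5 to 16.9 RPKM in C362A intestines against 2.03 to 2.79 in controls, with 3 of 5 tested higher and Siglech lower, to 3.24 to 4.07 without Casp1 and to 7.95 to 11.9 without Cflar. No marker of these 4 lists was at 0 in C362A intestines, and their part in the ligand results of the C362A set was not tested.

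**Figure D5:**
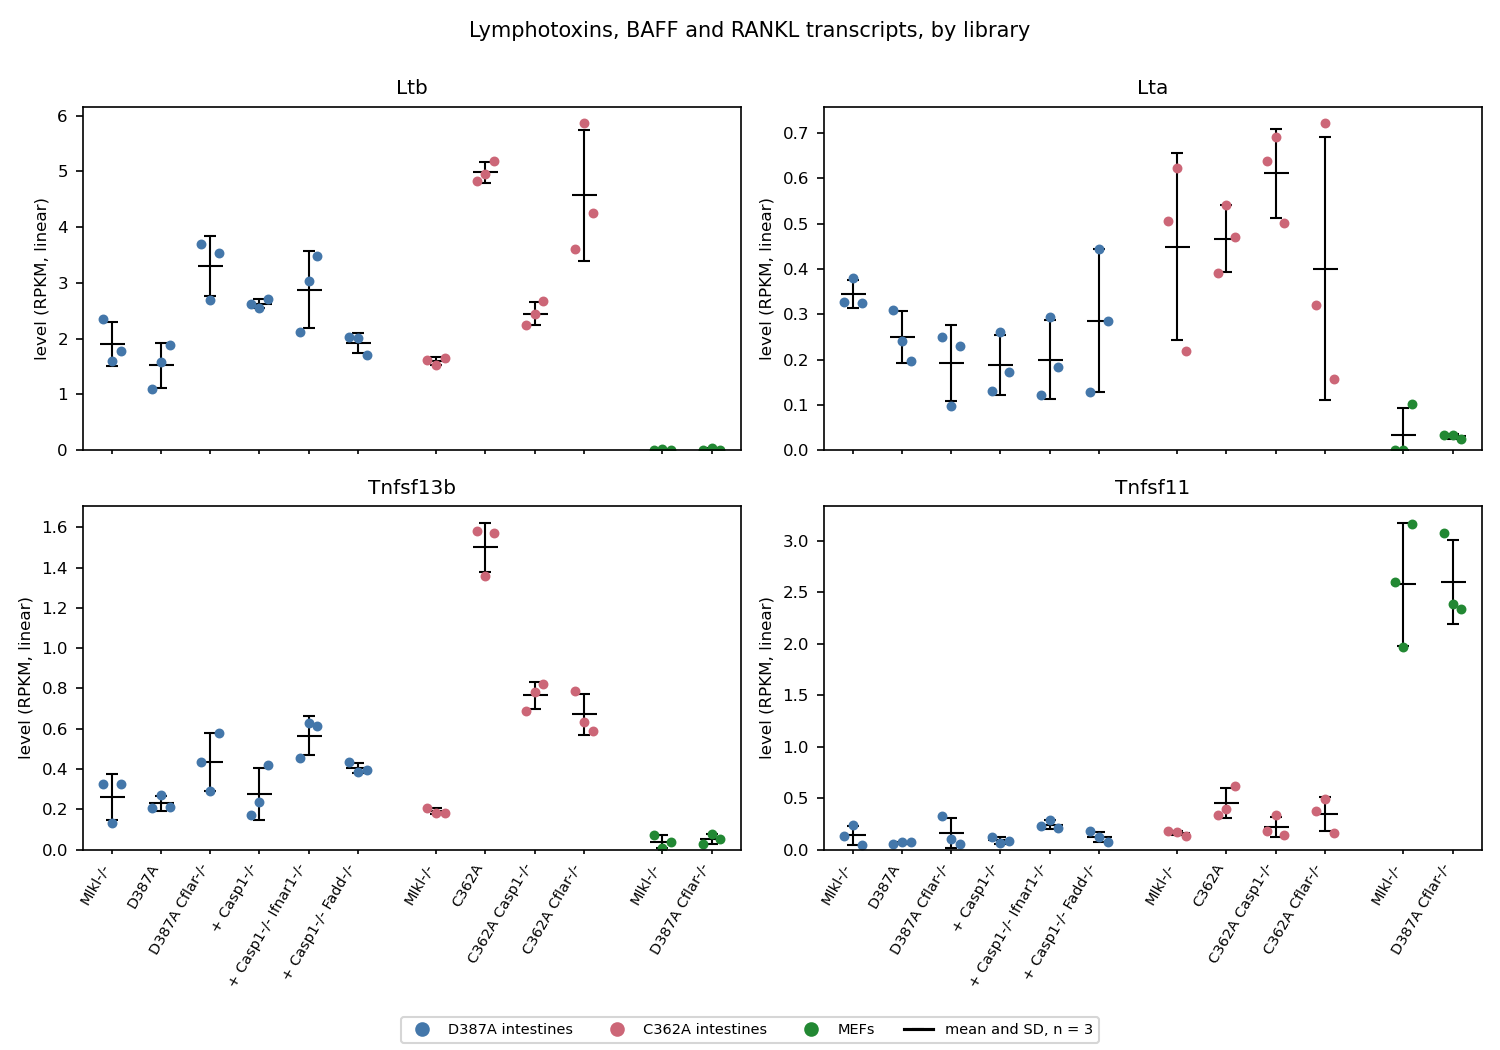
Levels of Ltb, Lta, Tnfsf13b and Tnfsf11 (RPKM, linear axes from 0) in all 36 libraries, with points for libraries, bars for means and SD of 3 (lower ends stop at 0), and + for genes removed in addition to D387A Cflar-/-. Tnfsf13b is highest in the C362A group, at 1.36 to 1.58 RPKM, and Tnfsf11 is higher in all 6 MEF cultures than in any intestine.

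Cell type markers also moved with the ligands in the D387A set. Epithelial markers summed to 14500 to 15300 RPKM in controls and 1470 to 1650 in D387A Cflar-/- intestines, with Fabp1, Fabp2 and Alpi lower and Krt8 higher among the 9. The median log2 fold change of these markers was -0.55. They summed to 7460 to 9250 without Casp1 and 12300 to 13300 without Casp1 and Fadd. Neutrophil markers summed to 61.1 to 231 RPKM in D387A Cflar-/- intestines against 4.15 to 28.2 in controls, with 4 of 5 tested higher, Mpo lower and Elane at 0, and fell to 10.6 to 26.7 without Casp1. Macrophage and monocyte markers summed to 98.6 to 140 RPKM against 87.6 to 93.3, with 3 of 7 higher and Csf1r lower. Dendritic cell markers summed to 4.87 to 9.61 against 2.24 to 2.32 RPKM, with 2 of 4 tested higher and Siglech lower. In D387A Cflar-/- Casp1-/- Ifnar1-/- intestines, where 5 ligands were called, macrophage and monocyte markers summed to 190 to 245 RPKM with 3 of 7 higher than in controls, neutrophil markers to 24.9 to 44.5 with 3 of 5 tested higher, Mpo lower and Elane at 0, dendritic cell markers to 3.8 to 4.42 with Itgax higher and Siglech lower, and epithelial markers to 5780 to 7520 with Fabp1 and Fabp2 lower and Krt20 higher. Macrophage and monocyte markers summed to 113 to 177 RPKM without Casp1 and 108 to 113 without Casp1 and Fadd. The part of these cells in the ligand results was not tested.

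Of the 15 receptors of these ligands, 13 could be tested in the intestines. In D387A Cflar-/- intestines 6 were higher and 1 lower, and in C362A intestines 6 were higher and none lower, with medians of 0.46 and 0.91 on the log2 scale, where 22.2% and 18% of all genes were called with medians of -0.01 and 0.02. Tnfrsf1b, the TNF receptor found mainly on immune cells, rose by 2.39 in the former (adjusted p = 1.33e-09) and by 2.59 in the latter (adjusted p = 2.4e-09). Tnfrsf1a, the death domain receptor of TNF, was among those not called, at 82.9 to 88.3 RPKM in controls and 77.1 to 93.9 RPKM in D387A Cflar-/- intestines. Fas rose by 1.52 in C362A intestines (adjusted p = 0.000203) and by 2.25 without Casp1 and Ifnar1 in the D387A set (adjusted p = 6.32e-06). Tnfrsf10b, the TRAIL death receptor, rose by 1.10 in D387A Cflar-/- intestines (adjusted p = 1.14e-05). Ltbr was called in neither, at 110 to 121 RPKM in controls and 83.9 to 88.9 RPKM in D387A Cflar-/- intestines.

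Among 9 other TNF superfamily ligands, 3 could be tested in the D387A set and none was called in any of its comparisons. In the C362A set 6 could be tested, and Tnfsf18, Tnfsf14 and Tnfsf8 were higher in C362A intestines. Tnfsf14 encodes LIGHT, a further ligand of Ltbr, and had 8, 3 and 3 reads in controls and 28, 30 and 52 reads in C362A intestines (log2 fold change 2.87, SE 0.421, adjusted p = 7.46e-05). It fell with Casp1 loss (-2.40, adjusted p = 0.000462), as did Tnfsf18, the ligand of GITR, which had 8, 22 and 37 reads in C362A and 3, 1 and 3 without Casp1 (-3.01, adjusted p = 0.00267).

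Of 7 genes that release or restrain the ligands at the membrane, 1 was higher in D387A Cflar-/- intestines, Rhbdf2, which brings the TNF sheddase to the cell surface (log2 fold change 1.12, adjusted p = 1.07e-06). In C362A intestines 1 was higher, Sppl2a, an intramembrane protease that cleaves TNF (1.20, adjusted p = 2.33e-05). Of 13 adaptors and regulators at the receptors, 4 were higher in the former and 3 in the latter. None of either list was lower, and 22.2% and 18% of all genes were called in either direction in these comparisons, so neither count is read as particular to its list. Birc3, the cIAP2 ubiquitin ligase, rose by 2.05 (adjusted p = 9.93e-08) and 1.49 (adjusted p = 3.45e-07). Of 12 genes known to be induced by TNF, 11 were higher in each of D387A Cflar-/-, C362A and C362A Cflar-/- intestines, with medians of 2.64, 2.64 and 2.21 on the log2 scale. The chemokine Ccl2 rose by 6.03 in D387A Cflar-/- intestines (adjusted p = 4.67e-10) and fell by 2.80 with Casp1 loss (adjusted p = 5.38e-07). Without the third D387A Cflar-/- Casp1-/- embryo, 8 of the 12 fell with Casp1 loss in place of 3, and none rose in place of 1. That 1 was the chemokine Ccl20, which was higher without Casp1 in D387A Cflar-/- (1.27, adjusted p = 0.000224) and in C362A intestines (2.24, adjusted p = 3.71e-06). With Fadd loss 5 of the 12 fell, among them Cxcl1 (-2.74, adjusted p = 0.0141), Cxcl2 (-2.64, adjusted p = 0.000458) and Ccl2 (-2.07, adjusted p = 0.000458). Without that embryo 2 of the 12 fell with Fadd loss, Cxcl2 (-1.78, adjusted p = 5.75e-05) and Ccl2 (-1.63, adjusted p = 0.00051), and Cxcl1 was at -0.94 (adjusted p = 0.161). Of 4 targets of the lymphotoxin beta receptor, 2 could be tested: Madcam1, the gut homing addressin, rose by 1.51 in D387A Cflar-/- intestines (adjusted p = 5.48e-10), and Cxcl13, the B cell chemokine, by 1.28 in C362A intestines (adjusted p = 0.000613).

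In MEFs none of the 3 tested ligands was called, where 0.0711% of all genes were, and none had an unadjusted p under 0.05. DESeq2 and limma-voom also called 0. Tnfsf9 was at 3.67, 3.23 and 3.77 RPKM in Mlkl-/- cultures and 2.7, 3.26 and 2.98 RPKM in D387A Cflar-/- cultures (log2 difference -0.25, SE 0.164, adjusted p = 0.846). Tnfsf11 was at 2.6, 1.97 and 3.16 against 3.08, 2.39 and 2.34 RPKM (0.02, SE 0.206, adjusted p = 0.991), and Tnfsf15 at 0.407, 0.265 and 0.489 against 0.558, 0.395 and 0.307 RPKM (0.12, SE 0.34, adjusted p = 0.968). The groups overlapped for all 3. Tnf was at 0.208, 0.2 and 0.0571 RPKM in Mlkl-/- cultures, from 11, 10 and 2 reads, and at 0.222, 0.346 and 0.397 RPKM in D387A Cflar-/- cultures, from 8, 12 and 19 reads. Every D387A Cflar-/- culture was above every control for Tnf, with an exact permutation p of 0.1, the smallest possible here, and a ratio of read rates of 1.97 (95% counting interval 1.15 to 3.46). Macrophage and monocyte markers summed to 105 to 138 RPKM in D387A Cflar-/- cultures against 36.3 to 44.6 in controls, where Ly6c2 was at 0. Of these 7, 5 were tested and Lyz2 rose (log2 fold change 1.99, adjusted p = 0.00122), and their part in the Tnf result was not tested. The remaining 5 ligands had at most 11 reads in any culture and their groups overlapped (exact permutation p of 0.4 to 1). Of 12 TNF-induced genes, 11 were tested and 2 rose, Relb (1.17, adjusted p = 0.00864) and Nfkbia (1.12, adjusted p = 0.00122).

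The effect of D387A Cflar-/- was compared between intestines and MEFs by an interaction term, which called 3 of 7 tested ligands and 15.3% of all genes. The log2 fold change was larger in intestines by 4.67 for Tnf (SE 1.12, adjusted p = 0.00213), by 2.87 for Tnfsf9 (SE 0.305, adjusted p = 2.42e-07) and by 5.92 for Tnfsf15 (SE 0.929, adjusted p = 2.94e-05). Tissue, developmental stage and library kit differ together between these sets. The effect of losing Casp1 was compared between D387A Cflar-/- and C362A intestines in the same way, and none of 8 tested ligands was called by edgeR (5.73% of all genes were), with 1 at an unadjusted p under 0.05. For the effect of the Cflar-deficient mutants, D387A against C362A, none of 8 was called (0.0764% of all genes were), with 3 at an unadjusted p under 0.05: Tnfsf13b (-1.09, adjusted p = 0.134), Ltb (-0.73, adjusted p = 0.159) and Tnfsf10 (-0.75, adjusted p = 0.238). DESeq2 and limma-voom called 0 in both. The larger number of called ligands in C362A Cflar-/- than in D387A Cflar-/- intestines was therefore not shown to be a difference between the sets. Casp8 mutation, Cflar deletion and set differ together in that comparison.

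For the 7 ligands tested in both intestine sets, the genes with the most similar pattern were ranked by Pearson r of the log2 fold change over the 8 mutant genotypes, which share 2 groups of controls, as a description. The comparison was limited to genes tested in both sets whose 8 fold changes had an SD of at least 1, which left 1415 or 1416 genes for each ligand. Tnf was nearest to Nos2 (r = 0.991), the inducible nitric oxide synthase, and to Saa3 (r = 0.98), an acute phase protein gene. Tnfsf10 was nearest to Gm43814 (r = 0.995), Ube2l6 and Znfx1 (both r = 0.994), and Ube2l6 is an interferon-induced conjugating enzyme of ISG15. Tnfsf9 was nearest to Epop (r = 0.991), Tnfsf15 to Barx2 (r = 0.948), Ltb to Cd86 (r = 0.993), a costimulatory ligand of antigen-presenting cells, Tnfsf13b to BC147527 (r = 0.991) and Tnfsf11 to Pilrb2 (r = 0.965).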

How the data were processed

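The deposited counts were raw reads on the exons of each of 52636 genes in 36 libraries. Per the study's methods, the authors aligned reads with GSNAP to GRCm38 (mm10) and kept uniquely mapped reads, while the counting program, annotation and strand setting are not given in the sources used here. The authors' RPKM column was not used for levels. RPKM was recomputed from counts, the deposited gene width and TMM-scaled library sizes. The ligands and gene lists were chosen with earlier results of these data known. Genes were kept by edgeR's filterByExpr (minimum count 10, total 15) and tested with edgeR 4.0.16 in R 4.3.3 by quasi-likelihood within each set of libraries, without a block. A call needed an absolute log2 fold change above 1 and a Benjamini-Hochberg adjusted p under 0.05. Differences between sets were interaction terms of joint fits. Ligands below the filter were compared by 2-sided exact permutation tests, with 0.1 the smallest p. Alternatives were DESeq2 1.42.0, limma-voom (limma 3.58.1), RLE factors, no filter, a mean of 50 reads, prior count 2, the compared groups alone, a replicate block and leaving out each library. Receptor and TNF-induced genes were also fitted without the third D387A Cflar-/- Casp1-/- library, chosen after seeing the data. The scripts were tested on simulated data. Same-numbered MEF libraries deviated together (correlations 0.231, 0.327 and 0.381), but no label pairs them, and whether the numbers pair the cultures was not tested. The block changed no call of the 3 ligands tested there. The genes named were the 9 ligands, their receptors, in each further list up to 3 called genes with the largest change and no overlap between groups, and the nearest genes by pattern. Kits and sequencers are described differently in the labels and the methods.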

Additional observations from a re-analysis of the deposited data

Results flagged for a closer look

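The effect of D387A Cflar-/- on 3 ligands differed between intestines and MEFs by an interaction term over both sets (edgeR, Benjamini-Hochberg adjustment). The log2 fold change was larger in intestines by 4.67 for Tnf (SE 1.12, adjusted p = 0.00213), by 2.87 for Tnfsf9 (SE 0.305, adjusted p = 2.42e-07) and by 5.92 for Tnfsf15 (SE 0.929, adjusted p = 2.94e-05). Tnf was higher in all 3 mutant intestines and all 3 mutant cultures than in their controls, whereas the cultures overlapped for Tnfsf9 and Tnfsf15. Tissue, stage and library preparation cannot be told apart in this comparison. Leaving out 1 library at a time gave 4.38 to 5.04 for Tnf, 2.8 to 2.94 for Tnfsf9 and 5.37 to 8.76 for Tnfsf15, whose highest value came without the second control intestine, the one with both control reads, and so depends on the prior count.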

How the results depend on the processing

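Leaving out 1 library at a time gave 498 values, of which 449 kept their direction and side of the threshold, and the other settings gave 554, of which 537 did. When 1 library was left out, the number of ligands called ranged from 1 to 3 for D387A Cflar-/- Casp1-/- Fadd-/- against controls, from 1 to 4 for Casp1 loss in D387A Cflar-/-, from 0 to 4 for Ifnar1 loss, from 1 to 3 for Fadd loss and from 1 to 3 for Cflar loss in C362A. With a mean of at least 50 reads, 3 ligands were called without Casp1 and Ifnar1 against controls, 1 for Casp1 loss and 1 for Ifnar1 loss, by construction because fewer genes were tested. With only the groups compared in the fit, 1 was called for Casp1 loss, 0 for Ifnar1 loss and 1 for Fadd loss. Ifnar1 loss called 1 with prior count 2, and Fadd loss called 1 by limma-voom. The cause was not tested for the remaining changes.

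Directions reversed only for values that were not called, when 1 library was left out: Tnfsf15 with Casp1 loss in C362A (-0.72 to 0.01), Tnfsf11 in MEFs (-0.15 to 0.18), Tnfsf15 in MEFs (-0.14 to 0.31) and the difference between sets in the Tnf effect of Casp1 loss (-0.88 to 0.89). Tnf with Casp1 loss in D387A Cflar-/- was called at -1.5 by limma-voom (adjusted p = 0.00606), at -1.02 with no filter (adjusted p = 0.0211) and at -1.20 with a replicate block (adjusted p = 0.0179). Replicate numbers in the intestines did not pair libraries (correlations of -0.322 to 0.292 and -0.51 to 0.348), and the block changed no other ligand call.

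Over all genes, counts of calls moved by more than 1.5 times as follows. Casp8 D387A alone called 1 gene, 3 by DESeq2, 14 with no filter and 7 with only the groups compared. D387A Cflar-/- Casp1-/- against controls called 796, 524 with a mean of 50 reads and 456 with only the groups compared. The corresponding group without Ifnar1 called 2278 and 1453 with a mean of 50 reads, and Casp1 loss 2459 and 1581. Ifnar1 loss called 976, 573 with a mean of 50 reads, 411 with only the groups compared and 582 to 1740 when 1 library was left out. Fadd loss called 631 and 322 with only the groups compared. MEFs called 11, 36 by DESeq2, 45 with no filter, 19 with the replicate block and 2 to 14 when 1 library was left out. The difference between Cflar-deficient mutants called 15, 70 by DESeq2, 7 by limma-voom, 123 with no filter and 0 to 645 when 1 library was left out (645 without the third C362A Cflar-/- embryo). Depth limits Fasl, Lta and, in intestines, Tnfsf11 and control Tnf and Tnfsf15, whose fold changes rest on few reads.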
